A study of Chlamydomonas reinhardtii with 9 samples.

Results

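The genes described here are those of Chlamydomonas reinhardtii that carry a name of the thioredoxin (TRX), glutaredoxin (GRX), peroxiredoxin (PRX), glutathione peroxidase (GPX), ascorbate peroxidase (APX), catalase (CAT), thioredoxin reductase (NTR), glutathione S-transferase (GST), glutathione synthesis or reduction (GSH, including GSHR) or methionine sulfoxide reductase (MSRA) families. They were chosen by the prefix of the name in the deposited table and by a mean of at least 1 RPKM over all columns, where RPKM counts reads per kilobase of transcript, scaled to the depth of the library. This took 42 of 17301 transcripts: 10 TRX, 7 PRX, 4 each of NTR, GRX, GSH and MSRA, 3 GST, and 2 each of GPX, APX and CAT. The name rule matched 42 rows before the limit on level as well. Strain CC-4532 (2137) was grown in light on acetate (TAP) medium, washed free of Fe-EDTA and moved to fresh medium without it, and sampled early (at 0.5, 1 and 2 h), in mid-course (at 4, 8 and 12 h) and late (at 24 h and 48 h), with 0 h as the starting point. Each time is 1 sample record with 2 columns of values, which the series text calls biological duplicates. All cells, those at 0 h too, had been washed without iron, and a culture kept with iron was not among the samples, so age of the culture, fresh medium and loss of iron cannot be told apart.

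The libraries held about 13200000 to 33400000 reads, and every gene of the 42 had at least 24 reads in every column. Across genes, log2(RPKM + 1) correlated at 0.982 to 0.989 between the duplicates of a time; genes are not independent replicates. The uptake gene FRE1 (Cre04.g227400), a ferric-chelate reductase known to rise in iron-starved cells, had 1558 and 2050.3 RPKM at 12 h, against 0.253 and 0.147 RPKM at 0 h, which matches the labels. FOX1, FTR1 and FEA1, looked at for the same check, were also higher at 12 h. Their duplicates of 0 h differed, with 1029 and 240 RPKM for FEA1, 107 and 68.0 for FOX1 and 105 and 72.8 for FTR1. A change is given below as a difference in log2(RPKM + 1) from 0 h, which understates the change of weak transcripts, with a standard error (SE) from limma-trend on 2 columns per time (n = 2). A gene is said to have risen, fallen or been called where the p-value adjusted over all 13077 tested genes was below 0.05 and the change at least 2-fold. The p-values rest on the spread left over all 18 columns once a steady difference between duplicates 1 and 2 was removed. They do not measure a gap that the duplicates kept at every time.

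Cells dispose of hydrogen peroxide and lipid peroxides by heme enzymes, which hold iron at the active site, and by enzymes that use cysteine in place of iron. Ascorbate peroxidase and catalase are of the heme kind. Peroxiredoxins and most plant and algal glutathione peroxidases are of the thiol kind and are returned to the reduced state by thioredoxins, which are small proteins with a redox-active cysteine pair. Plastid thioredoxins take electrons from photosystem I by way of ferredoxin and an iron-sulfur reductase, and those elsewhere take them from NADPH through thioredoxin reductases. Glutathione and glutaredoxins form a parallel route, and glutaredoxins of the CGFS type also carry iron-sulfur clusters.

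The 42 transcripts moved in both directions and at different times. Over the 8 later times 17 of them rose at least once and 17 fell at least once, 6 of these in both directions. A further 14 were called at no time. How many of all tested genes rose, or fell, at least once was not counted. In all 86 calls both duplicates had moved in the called direction and the pairs of the later time and of 0 h did not overlap. The call rule itself favours such pairs, and the share among calls of all tested genes was not computed. Of the 42, 66.7% (28) were called at some later time, against 59.4% of all tested genes, and 14.3% were called in both directions, against 4.18% of all tested genes. An F test over the 9 times passed for all 42, and for 98.6% of all tested genes.

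At 0.5 h, 2 members rose (PRX6 and GPX3), where 5.64% of all tested genes rose and 3.48% fell; limma-trend called 0 members lower, 5 having an unadjusted p below 0.05 with a lower value. At 1 h, 8 rose and 2 fell, with 8.38% and 4.95% of all tested genes, and at 2 h 8 rose and 4 fell, with 9.44% and 7.18%. At 4 h, 7 rose and 5 fell (5.99% and 11.8% of all genes), and at 8 h, 7 rose and 4 fell (7.36% and 13.9%). At 12 h the count was 6 in each direction (10.1% higher and 18% lower among all genes), and at 24 h 6 rose and 4 fell (14.8% and 6.39%). At 48 h, 5 rose and 12 fell, which is 11.9% and 28.6% of the 42, where 18.4% and 15.8% of all tested genes did.

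The median change of all tested genes lay between -0.16 at 8 h and 0.29 at 24 h. After centring, which sets the median of each column to one level, 2 members rose and 1 fell at 0.5 h, where 3.51% of all tested genes rose and 5.02% fell. The centred counts were 4 risen and 3 fallen members at 1 h (5.04% and 7.49% of all tested genes) and 6 risen and 5 fallen at 2 h (8.14% and 8.19%). They were 10 risen and 2 fallen at 8 h (10.3% and 9.97% of all tested genes) and 9 risen and 4 fallen at 12 h (13.5% and 14.3%). At 24 h, 4 members rose and 8 fell after centring, and the direction with more calls turned for all tested genes as well, with 6.98% higher and 10.9% lower. At 48 h the centred counts were 5 and 14, where 14.3% and 19.2% of all tested genes were called.

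**Figure D1:**
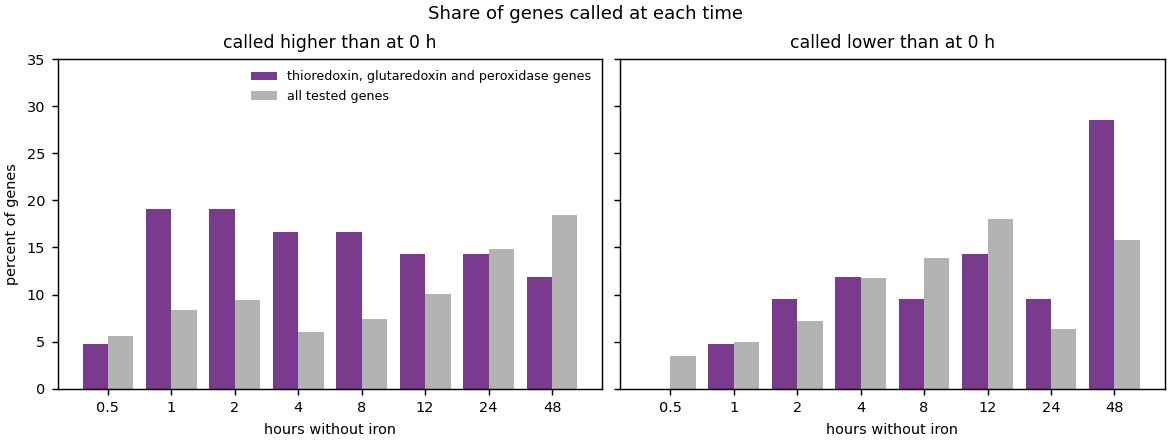
Share of genes called at each time, in percent, by hours without iron on the horizontal axis; the left panel shows genes higher than at 0 h and the right panel genes lower. Purple bars are the 42 thioredoxin, glutaredoxin and peroxidase genes and grey bars all 13077 tested genes; the tallest purple bar is the 28.6% that were lower at 48 h, beside 15.8% of all genes.

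The end of the course stood apart. The mean of the 2 columns was at its lowest at 48 h in 20 of the 42 genes (47.6%), where this held for 21.2% of all tested genes, and at its highest at 48 h in 6 (14.3%), against 30.9% of all. At 1 h, 8 of the 42 (19.0%) had their highest mean, against 8.16% of all tested genes. The highest of the 9 time means exceeded the lowest by 1.61-fold to 44.3-fold, with a median of 3.36-fold; 17 genes spanned at least 4-fold and 5 stayed under 2-fold. The sum of the 42 genes was 0.386% (duplicate 1) and 0.342% (duplicate 2) of the summed RPKM of a column at 48 h, against 0.594% and 0.534% at 0 h, with 0.761% and 0.690% at 1 h. Abundant transcripts such as PRX1, PRX2 and TRXm weigh most in this sum. The PRX genes alone held 0.155% and 0.0984% at 48 h, against 0.305% and 0.261% at 0 h. For the TRX genes it was 0.0783% and 0.0733%, against 0.147% and 0.135%. The CAT, NTR and GSH sums were higher at 48 h than at 0 h. In bulk RNA, fewer cells that hold a transcript and less of it per cell cannot be told apart.

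**Figure D2:**
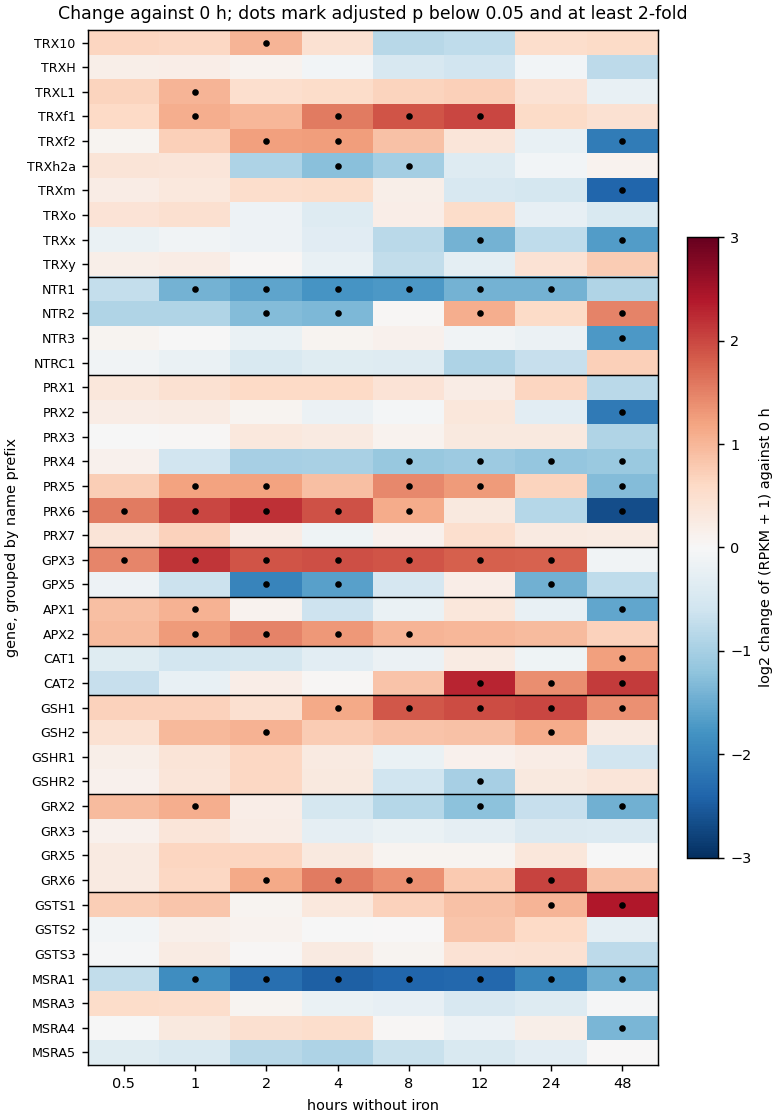
Change of each of the 42 genes against 0 h, as the log2 difference of RPKM + 1 (colour, red higher and blue lower, from -3 to 3), with hours without iron on the horizontal axis and genes in rows grouped by name prefix. Black dots mark an adjusted p below 0.05 with at least a 2-fold change; MSRA1 and NTR1 have dots on blue at most times, GPX3 on red from 0.5 to 24 h, and PRX6 on red from 0.5 to 8 h and on blue at 48 h.

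The 7 peroxiredoxin genes include the pair of most abundant transcripts of the set. Of the 7, 4 fell at 48 h, where 15.8% of all tested genes did. PRX5 and PRX6, which were among these 4, had risen earlier. PRX6 (Cre10.g422300), the plastid peroxiredoxin Q, had the widest range of the 42 genes, 44.3-fold between its highest and lowest time means. It had 15.4 and 18.5 RPKM (0 h), 63.1 and 42.3 (0.5 h), 78.0 and 65.3 (1 h), 89.3 and 72.5 (2 h) and 72.7 and 60.9 (4 h) in duplicates 1 and 2. It then had 44.0 and 32.0 RPKM (8 h), 24.7 and 17.4 (12 h), 9.96 and 7.89 (24 h) and 2.05 and 1.60 (48 h). Both columns lay above those of 0 h from 0.5 to 8 h, and both lay far below them at 48 h, the lowest point of the course. The change was 2.18 (SE 0.15, limma-trend adjusted p = 1.5e-07) at 2 h and -2.67 (SE 0.15, limma-trend adjusted p = 3.7e-09) at 48 h. Its rise at 8 h (1.11) fell below 2-fold without duplicate 1 of 0 h (0.80) or with 5 RPKM added in place of 1 (0.96).

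PRX5 (Cre01.g014350), a type II peroxiredoxin with a predicted targeting signal, also rose and then fell. Its columns held 40.4 and 53.6 RPKM (0 h), 68.8 and 89.4 (0.5 h), 91.7 and 130.4 (1 h), 98.4 and 119.8 (2 h) and 78.7 and 98.9 (4 h). Later they held 118 and 139 RPKM (8 h), 104 and 126 (12 h), 66.1 and 85.2 (24 h) and 17.3 and 19.4 (48 h). Both columns of every time from 0.5 to 24 h were above both of 0 h, and those of 48 h were below them. The change was 1.44 (SE 0.09, limma-trend adjusted p = 3.4e-08) at 8 h and -1.30 (SE 0.09, limma-trend adjusted p = 2.3e-08) at 48 h.

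PRX2 (Cre02.g114600), a typical 2-Cys peroxiredoxin of probable cytosolic place, was called at no time before 48 h. It had 1049 and 895 RPKM (0 h), 1231 and 1035 (0.5 h), 1221 and 1087 (1 h), 1084 and 974 (2 h) and 937 and 776 (4 h). The later values were 976 and 881 RPKM (8 h), 1281 and 1164 (12 h), 823 and 746 (24 h) and 278 and 177 (48 h). The pair at 48 h was the lowest of the course and changed by -2.12 (SE 0.11, limma-trend adjusted p = 1.5e-09), the single call of this gene against 0 h.

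PRX1 (Cre06.g257601), the plastid 2-Cys peroxiredoxin, was the most abundant of the 42 genes, with a mean of 1483 RPKM over all columns, and was called at no time. Its values were 1289 and 1056 RPKM (0 h), 1709.7 and 1292 (0.5 h), 1816 and 1429.9 (1 h), 1976 and 1575 (2 h) and 2095 and 1493 (4 h). From there they were 1800.1 and 1325 RPKM (8 h), 1588 and 1169 (12 h), 2081 and 1618 (24 h) and 874 and 513 (48 h). Duplicate 1 exceeded duplicate 2 at each time, and the pair at 48 h lay below that of 0 h, with a change of -0.80 (SE 0.10). Of the other 3 genes, PRX4 (Cre02.g080900), a further type II form, fell to between 52.8 and 55.5 RPKM in time means from 8 to 48 h, against 118 RPKM at 0 h, and its calls rested on changes close to 2-fold (-1.14 at 8 h and -1.09 at 12 h, but -0.97 and -0.92 after centring). Centring in turn made a call of the PRX4 change at 2 h (-0.99 as reported and -1.06 centred). Without duplicate 2 of 0 h the PRX4 change was -0.95 at 12 h and -0.98 at 48 h, without duplicate 2 of 12 h -0.998 and without duplicate 2 of 48 h -0.97, in place of -1.09 and -1.12. PRX3 (Cre10.g449550) and PRX7 (Cre20.g760750), a fusion of a peroxiredoxin with a thioredoxin domain, were called at no time; PRX3 had a change of -0.90 at 48 h, which became a call after centring. In PRX3 duplicate 2 exceeded duplicate 1 at each time, with 31.7 and 62.7 RPKM at 0 h. The family median at 48 h was -1.12, beside 0.14 for all tested genes.

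**Figure D3:**
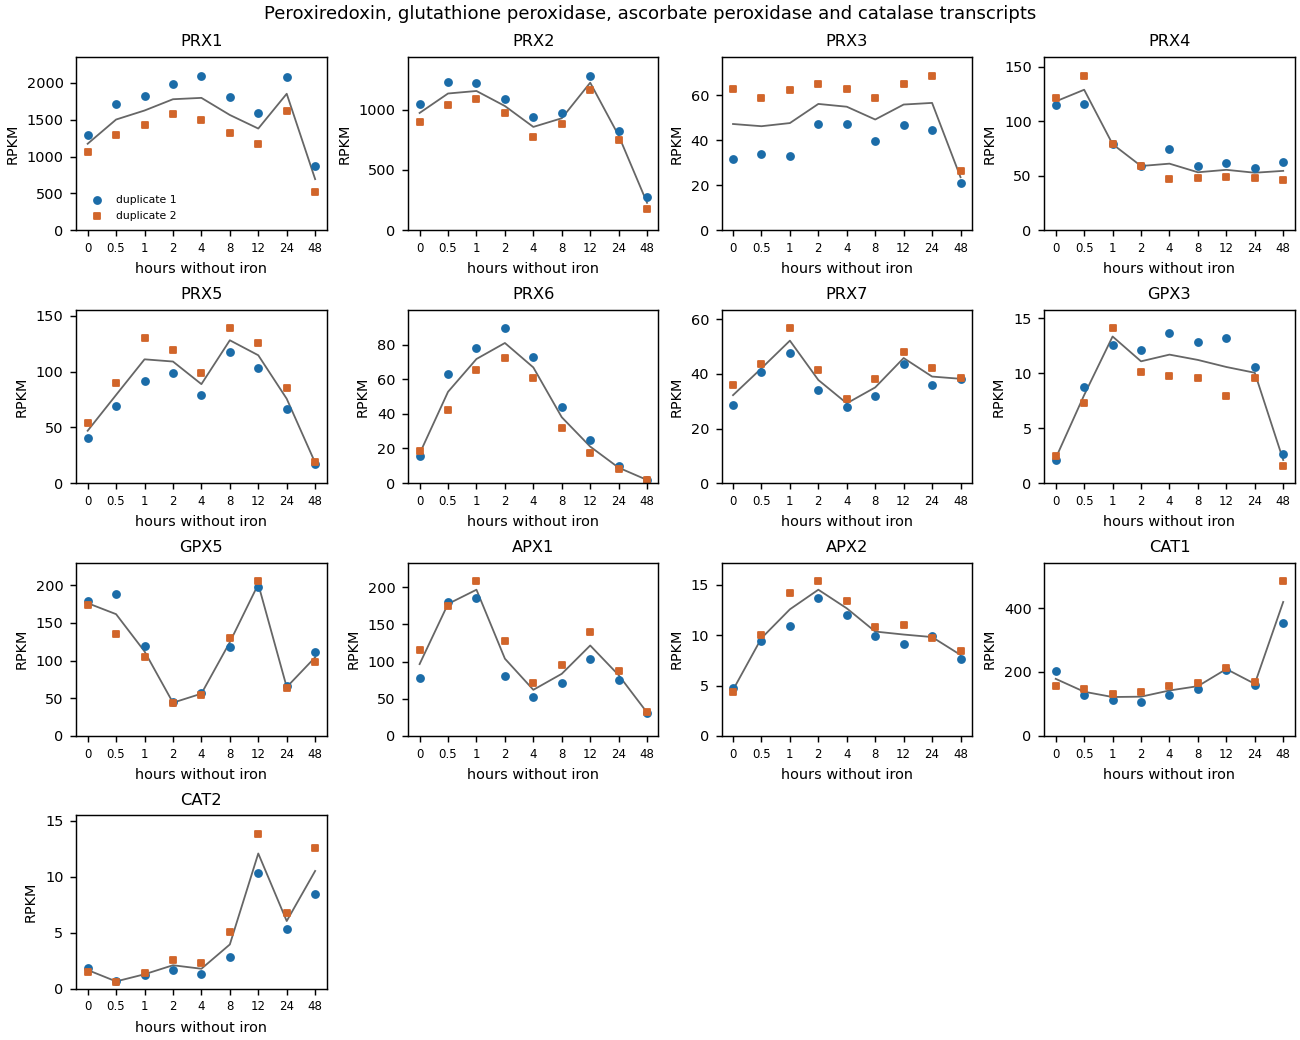
RPKM of the 13 peroxidase and catalase genes in every column, by hours without iron; blue circles are duplicate 1, orange squares duplicate 2 and lines join the means of both. PRX6 is highest at 2 h and below its 0 h values at 24 h and 48 h. PRX5 and GPX3 lie above both of their 0 h values from 0.5 to 24 h but not at 48 h. CAT1 and CAT2 are above their 0 h values at 48 h.

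The 2 glutathione peroxidase genes followed opposite early courses. GPX3 (Cre03.g197750), of a predicted mitochondrial form, had 2.07 and 2.46 RPKM (0 h), 8.71 and 7.32 (0.5 h), 12.6 and 14.1 (1 h), 12.1 and 10.1 (2 h) and 13.6 and 9.74 (4 h). It had 12.8 and 9.57 RPKM (8 h), 13.2 and 7.96 (12 h), 10.5 and 9.54 (24 h) and 2.67 and 1.54 (48 h) later. From 0.5 to 24 h both columns exceeded both of 0 h; at 48 h the pairs overlapped. The change was 2.14 (SE 0.18, limma-trend adjusted p = 9.6e-07) at 1 h and -0.10 (SE 0.18) at 48 h; the call at 0.5 h (1.46) was lost with 5 RPKM added (0.84). GPX5 (Cre10.g458450), also known as GPXH and induced by singlet oxygen in other work on this alga, had 179 and 174 RPKM (0 h), 188 and 135 (0.5 h), 119 and 105 (1 h), 45.0 and 43.2 (2 h) and 57.3 and 54.9 (4 h). After that it had 119 and 130.2 RPKM (8 h), 197 and 205 (12 h), 66.3 and 63.2 (24 h) and 111 and 97.6 (48 h). GPX5 dipped at 2 and 4 h, lay slightly above both columns of 0 h at 12 h, and was low again at 24 h. Its change was -1.97 (SE 0.12, limma-trend adjusted p = 6.7e-08) at 2 h, 0.19 at 12 h and -1.43 at 24 h.

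The heme enzymes behaved differently from one another. APX1 (Cre02.g087700), an ascorbate peroxidase of possible plastid place, had 77.6 and 116 RPKM (0 h), 180.2 and 175 (0.5 h), 185 and 208 (1 h), 80.8 and 127 (2 h) and 52.8 and 71.2 (4 h). Later samples gave 71.1 and 96.1 RPKM (8 h), 104 and 139.7 (12 h), 75.8 and 87.8 (24 h) and 30.6 and 32.3 (48 h). Values at 0.5 and 1 h were above both of 0 h, and those of 48 h were the lowest of the course. The change was 1.04 at 1 h and -1.56 (SE 0.15, limma-trend adjusted p = 4.4e-07) at 48 h. The rise at 1 h fell below 2-fold after centring (0.87), without duplicate 1 of 0 h (0.90) and without duplicate 1 of 1 h (0.96). APX2 (Cre06.g285150), a second ascorbate peroxidase gene at a lower level, had time means of 14.5 RPKM at 2 h, against 4.57 RPKM at 0 h, rose from 1 to 8 h with a largest change of 1.48 (SE 0.11, limma-trend adjusted p = 2.2e-07), and was not called at 48 h (0.70). Its call at 8 h (1.03) was lost without duplicate 2 of 0 h (0.91), and with 5 RPKM added the change at 1, 4 and 8 h was 0.87, 0.88 and 0.68, all short of 2-fold.

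Both catalase genes rose late. CAT1 (Cre09.g417150), a monofunctional catalase, had 202 and 155 RPKM (0 h), 129 and 148 (0.5 h), 112 and 132 (1 h), 107 and 139 (2 h) and 129 and 156 (4 h). It went on with 147 and 164 RPKM (8 h), 205 and 214 (12 h), 158 and 168 (24 h) and 354 and 484 (48 h). The values from 0.5 to 4 h lay mostly below those of 0 h, and both columns of 48 h were far above every other column. The change at 48 h was 1.22 (SE 0.15, limma-trend adjusted p = 5.5e-06), and 0.92 without duplicate 2 of 0 h. CAT2 (Cre01.g045700), a bifunctional catalase-peroxidase, was the weakest of the 42 genes. It had 1.83 and 1.51 RPKM (0 h), 0.696 and 0.608 (0.5 h), 1.202 and 1.38 (1 h), 1.67 and 2.52 (2 h) and 1.31 and 2.25 (4 h). Its later values were 2.86 and 5.05 RPKM (8 h), 10.3 and 13.8 (12 h), 5.29 and 6.79 (24 h) and 8.49 and 12.5 (48 h). Every column from 8 h on was above both of 0 h. The change was 2.28 (SE 0.17, limma-trend adjusted p = 8.5e-08) at 12 h and 2.09 (SE 0.17, limma-trend adjusted p = 1.5e-07) at 48 h, and its call at 24 h (1.39) was lost with 5 RPKM added (0.72).

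At 48 h, where 18.4% of all tested genes rose and 15.8% fell, 2 of the 4 heme enzyme genes rose and 1 fell. Of the 9 thiol peroxidase genes (PRX and GPX) 4 fell and 5 were not called. The median change was 0.96 for the heme enzymes and -0.90 for the thiol enzymes, beside 0.14 for all tested genes. At 1 h the medians were 0.41 and 0.47, beside 0.19. The groups are small and were not tested against each other.

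The 5 plastid thioredoxins took separate courses. TRXf1 (Cre23.g766300), of the f type known to switch on enzymes of carbon fixation in light, was highest at 12 h. It had 89.3 and 70.4 RPKM (0 h), 113 and 131 (0.5 h), 165 and 178 (1 h), 149 and 169.9 (2 h) and 241 and 231 (4 h). It next had 299 and 294 RPKM (8 h), 331 and 315 (12 h), 115 and 124 (24 h) and 101 and 118 (48 h). All later columns exceeded both of 0 h. The change was 2.01 (SE 0.12, limma-trend adjusted p = 9.5e-09) at 12 h and 0.45 at 48 h, which was not called. At 1 h the change of 1.10 was 0.89 without duplicate 2 of 0 h and 0.93 after centring.

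TRXf2 (Cre05.g243050), its sister form, peaked earlier and then fell below the starting level. Its values were 29.7 and 31.0 RPKM (0 h), 29.7 and 35.1 (0.5 h), 47.6 and 53.2 (1 h), 67.2 and 79.0 (2 h) and 67.9 and 81.0 (4 h). The course ended with 56.2 and 56.3 RPKM (8 h), 39.4 and 39.1 (12 h), 25.1 and 27.1 (24 h) and 7.52 and 5.22 (48 h). Both columns at 1 to 12 h exceeded those of 0 h, and both at 48 h were several-fold below. The change was 1.26 (SE 0.14, limma-trend adjusted p = 5.7e-06) at 4 h and -2.11 (SE 0.14, limma-trend adjusted p = 1.9e-08) at 48 h.

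TRXm (Cre14.g621550), the most abundant thioredoxin transcript, was called at no time before 48 h. It had 518 and 462 RPKM (0 h), 604 and 541 (0.5 h), 665 and 566 (1 h), 814 and 609 (2 h) and 812 and 629.9 (4 h). Then it had 626 and 485 RPKM (8 h), 411 and 301 (12 h), 381 and 305 (24 h) and 105 and 81.9 (48 h). Both columns from 0.5 to 4 h lay above both of 0 h, and the pair at 48 h was below every other column. Its change at 48 h was -2.38 (SE 0.08, limma-trend adjusted p = 8.9e-11). TRXx (Cre01.g052250), known as an efficient reductant of 2-Cys peroxiredoxins, fell at 12 h (-1.41) and at 48 h (change -1.69, SE 0.12, limma-trend adjusted p = 2.8e-08), with time means of 34.2 RPKM at 48 h, against 112 RPKM at 0 h. TRXy (Cre10.g446100), known to reduce peroxiredoxin Q in plants, was called at no time against 0 h; its time means were 17.2 RPKM at 8 h and 50.4 RPKM at 48 h, against 29.1 RPKM at 0 h. At 48 h, 3 of the 5 plastid thioredoxin genes fell and 2 were not called, where 15.8% of all tested genes fell. The 5 changes ran from -2.38 to 0.77.

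Of the other 5 thioredoxin genes, 3 had at least 1 call and 2 had none. TRXH (Cre09.g391900), the cytosolic thioredoxin h1, was called at no time. It had 263 and 311 RPKM (0 h), 316 and 329 (0.5 h), 321 and 336 (1 h), 295 and 319 (2 h) and 257 and 286 (4 h). The rest of its course was 194 and 213 RPKM (8 h), 171 and 213 (12 h), 260.5 and 285 (24 h) and 156 and 177 (48 h). The columns of 8, 12 and 48 h lay below both of 0 h, with changes between -0.78 and -0.49. TRXh2a (Cre12.g554850), a second cytosolic form, had time means of 48.5 RPKM at 4 h, against 117 RPKM at 0 h (change -1.26, SE 0.12, limma-trend adjusted p = 1.6e-06), and 127 RPKM at 48 h. Its call at 8 h (-1.02) was lost after centring (-0.85), with 5 RPKM added (-0.97), without duplicate 2 of 0 h (-0.99) and without duplicate 1 of 8 h (-0.97). The mitochondrial TRXo (Cre05.g248500) was not called against 0 h, with time means between 28.7 and 58.7 RPKM. TRX10 (Cre01.g027450) and TRXL1 (Cre03.g157800), which are annotated with unusual active sites, were weak, with time means of at most 17.8 and 8.95 RPKM. Each had a single call, close to 2-fold: 1.01 for TRX10 at 2 h and 1.03 for TRXL1 at 1 h, which became 0.94 and 0.86 after centring and 0.78 and 0.64 with 5 RPKM added. Without duplicate 2 of 2 h the TRX10 change was 0.90; that of TRXL1 was 0.78 without duplicate 2 of 0 h and 0.87 without duplicate 2 of 1 h.

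**Figure D4:**
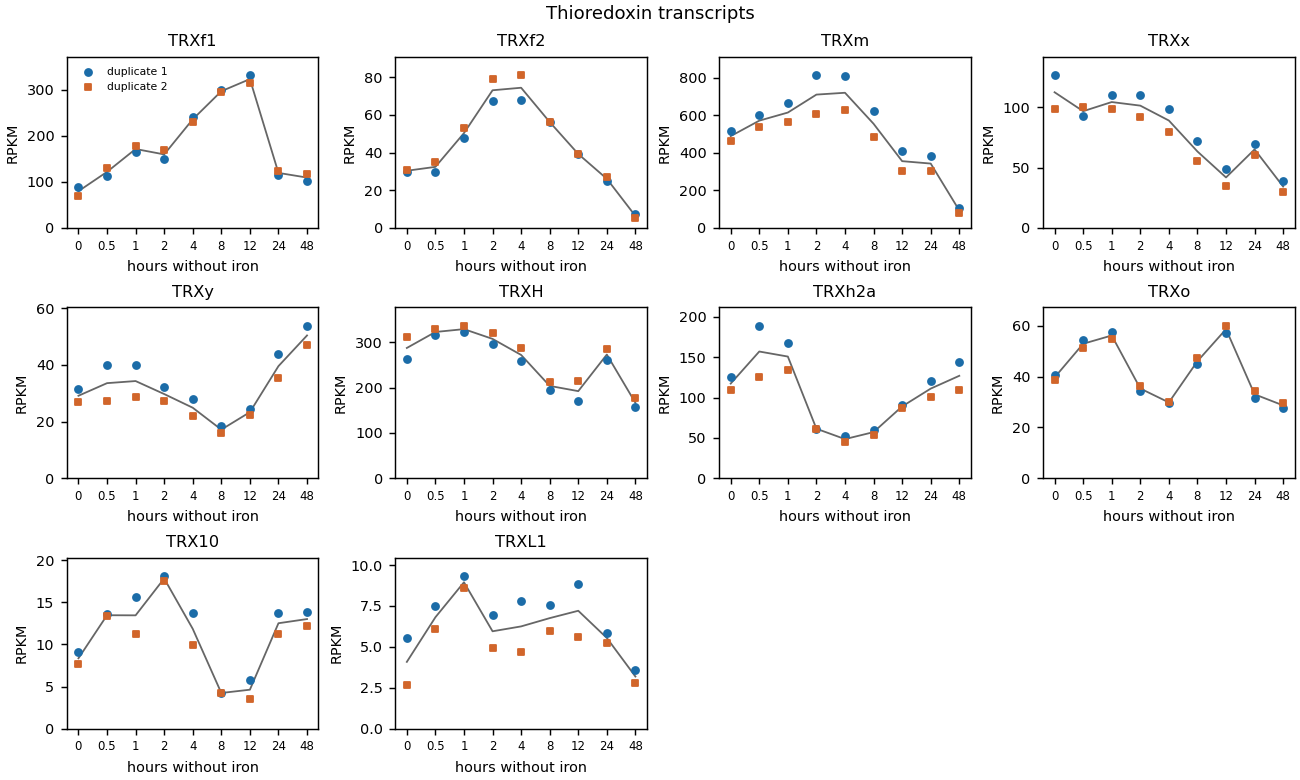
RPKM of the 10 thioredoxin genes in every column, by hours without iron; blue circles are duplicate 1, orange squares duplicate 2 and lines join the means of both. TRXf1 is highest at 12 h, TRXf2 and TRXm are highest at 4 h and lowest at 48 h, and TRXy is highest at 48 h.

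Thioredoxin reductases pass electrons from NADPH to thioredoxins, and the 4 genes split. NTR1 (Cre08.g368400), annotated as a cytosolic selenoprotein, fell early and stayed low. It had 43.7 and 45.2 RPKM (0 h), 19.8 and 36.0 (0.5 h), 15.0 and 17.2 (1 h), 12.9 and 15.4 (2 h) and 12.3 and 12.3 (4 h). It had 12.8 and 12.9 RPKM (8 h), 16.6 and 15.5 (12 h), 16.1 and 16.0 (24 h) and 21.5 and 25.4 (48 h) from then on. Both columns of every later time were below both of 0 h. The change was -1.77 (SE 0.17, limma-trend adjusted p = 1.7e-06) at 4 h and -0.90 (SE 0.17) at 48 h, which was short of 2-fold as reported and a call after centring. NTR2 (Cre02.g098850), of a form with a predicted mitochondrial signal, fell and then rose. Its columns gave 21.7 and 22.4 RPKM (0 h), 11.9 and 10.7 (0.5 h), 10.4 and 12.3 (1 h), 7.47 and 9.35 (2 h) and 6.96 and 9.20 (4 h). They gave 20.4 and 25.2 RPKM (8 h), 47.8 and 47.9 (12 h), 35.6 and 30.8 (24 h) and 72.4 and 55.5 (48 h) in the later samples. Values from 0.5 to 4 h were below both of 0 h and those of 12, 24 and 48 h above. The change was -1.35 (SE 0.16, limma-trend adjusted p = 9.6e-06) at 4 h and 1.49 (SE 0.16, limma-trend adjusted p = 1.8e-06) at 48 h, and that at 12 h (1.09) fell below 2-fold with 5 RPKM added (0.97).

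NTR3 (Cre07.g355600), of probable cytosolic place, was likewise not called before 48 h. It had 28.7 and 35.8 RPKM (0 h), 32.3 and 36.2 (0.5 h), 28.7 and 34.9 (1 h), 24.6 and 30.9 (2 h) and 31.0 and 37.4 (4 h). Its further values were 30.6 and 40.0 RPKM (8 h), 26.4 and 33.9 (12 h), 26.3 and 30.6 (24 h) and 7.75 and 10.5 (48 h). The pair at 48 h was the lowest, with a change of -1.72 (SE 0.08, limma-trend adjusted p = 1.2e-09). NTRC1 (Cre01.g054150), the fusion of a reductase with a thioredoxin that reduces 2-Cys peroxiredoxins in plant plastids, ran the other way at the end. It had 45.8 and 37.0 RPKM (0 h), 42.7 and 34.7 (0.5 h), 39.3 and 32.5 (1 h), 30.7 and 29.3 (2 h) and 33.0 and 31.1 (4 h). It reached 33.4 and 29.5 RPKM (8 h), 22.7 and 19.6 (12 h), 25.2 and 24.8 (24 h) and 67.6 and 68.5 (48 h). Both columns of 12 h were below those of 0 h and both of 48 h above them. Against 0 h it was called at no time (-0.93 at 12 h and 0.71 at 48 h), but centring made a call of its change at 24 h (-0.70 as reported and -1.02 centred).

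Methionine sulfoxide reductases repair oxidised methionine in proteins with electrons from thioredoxin. MSRA1 (Cre13.g570900), like NTR1 annotated as a selenoprotein, fell at 1 h, as NTR1 did, and was lower at each later time up to 48 h. It had 24.9 and 29.7 RPKM (0 h), 8.63 and 28.8 (0.5 h), 6.35 and 7.22 (1 h), 4.04 and 5.84 (2 h) and 4.97 and 3.50 (4 h). It stayed low with 4.14 and 4.69 RPKM (8 h), 5.53 and 3.67 (12 h), 6.27 and 6.17 (24 h) and 8.25 and 10.2 (48 h). The columns of 0.5 h disagreed, duplicate 1 being low and duplicate 2 near the start, and from 1 h on both columns were below both of 0 h. The change was -1.86 (SE 0.35, limma-trend adjusted p = 4.9e-04) at 1 h, -2.44 (SE 0.35, limma-trend adjusted p = 4.7e-05) at 4 h and -1.47 at 48 h. NTR1 showed a like gap at 0.5 h, with 19.8 and 36.0 RPKM. Among the other 3 genes MSRA4 (Cre01.g012150), whose table entry also names a peptidylprolyl isomerase domain, had 46.4 and 40.9 RPKM (0 h), 44.4 and 41.9 (0.5 h), 51.2 and 55.7 (1 h), 60.0 and 62.2 (2 h) and 67.1 and 59.2 (4 h). It had 47.8 and 42.0 RPKM (8 h), 40.6 and 37.3 (12 h), 49.5 and 49.3 (24 h) and 18.5 and 14.2 (48 h) at the later times. It fell at 48 h, where both columns lay below all others (change -1.37, SE 0.11, limma-trend adjusted p = 8.2e-08). MSRA3 (Cre08.g380300) and MSRA5 (Cre10.g464850) were called at no time, with time means of 13.0 to 27.5 RPKM and of 10.5 to 20.9 RPKM.

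**Figure D5:**
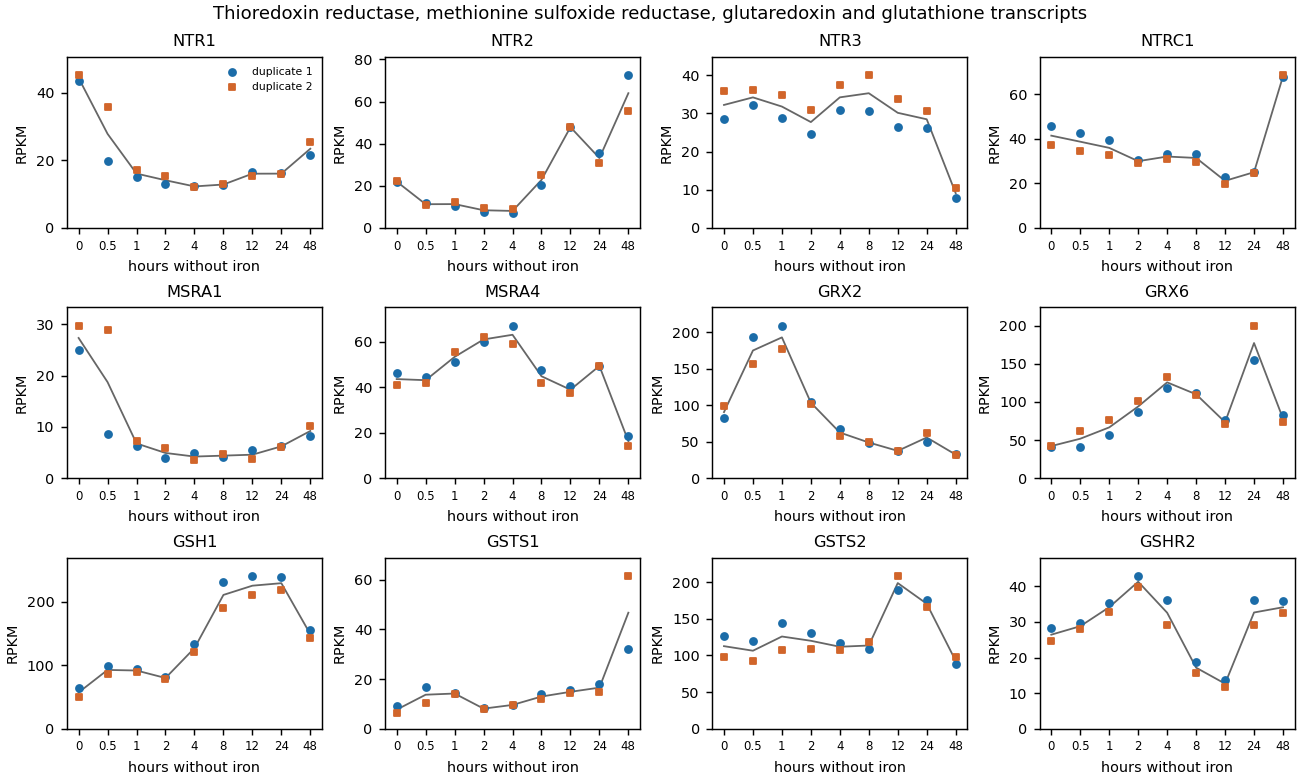
RPKM of 12 genes of the thioredoxin reductase, methionine sulfoxide reductase, glutaredoxin and glutathione families in every column, by hours without iron; blue circles are duplicate 1, orange squares duplicate 2 and lines join the means of both. NTR1 and MSRA1 drop within 2 h, GSH1 is highest from 8 to 24 h, and GSTS1 and NTRC1 are highest at 48 h.

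Glutathione is made in a pair of steps, and the gene of the first rose for most of the course. GSH1 (Cre02.g077100), gamma-glutamylcysteine synthetase, had 63.6 and 50.5 RPKM (0 h), 98.3 and 86.7 (0.5 h), 93.2 and 89.9 (1 h), 80.9 and 78.7 (2 h) and 133 and 120.2 (4 h). It had 231 and 190.1 RPKM (8 h), 240.0 and 210.0 (12 h), 239 and 219 (24 h) and 155 and 142 (48 h) thereafter. Every later column exceeded both of 0 h. The change was 1.15 at 4 h, 1.99 (SE 0.08, limma-trend adjusted p = 2.0e-09) at 24 h and 1.37 (SE 0.08, limma-trend adjusted p = 9.1e-09) at 48 h. GSH2 (Cre17.g708800), glutathione synthetase, stayed weak, with time means of 10.2 RPKM at 24 h, against 4.26 RPKM at 0 h, and was called at 2 h (1.04) and 24 h (1.10). Both of these calls fell below 2-fold after centring (0.97 and 0.78), with 5 RPKM added (0.68 and 0.72) and without duplicate 2 of 0 h (0.88 and 0.94). The one at 2 h also did so without duplicate 2 of 2 h (0.97). Centring in turn made calls of the GSH2 changes at 8 h (0.87 as reported and 1.04 centred) and 12 h (0.88 and 1.04). Of the glutathione reductase genes, which return oxidised glutathione to its thiol form, GSHR1 (Cre06.g262100) was called at no time, and GSHR2 (Cre02.g132850) was lower at 12 h by a change at the 2-fold limit (-1.01, and -0.84 after centring, -0.83 with 5 RPKM added and -0.99 without duplicate 2 of 12 h), with time means of 12.7 RPKM at 12 h, against 26.4 RPKM at 0 h.

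Among the glutaredoxins, the CPYC-type and 1 of the 3 CGFS-type genes moved. GRX2 (Cre12.g550400), the CPYC-type gene, a classical dithiol form of probable cytosolic place, had 82.1 and 99.2 RPKM (0 h), 194 and 156 (0.5 h), 209 and 177 (1 h), 105 and 102 (2 h) and 68.1 and 57.3 (4 h). It declined with 48.5 and 49.6 RPKM (8 h), 37.3 and 37.8 (12 h), 50.2 and 61.5 (24 h) and 32.8 and 32.1 (48 h). Both columns from 0.5 to 2 h were above both of 0 h, and both of every time from 4 h on were below them. The change was 1.08 at 1 h and -1.45 (SE 0.14, limma-trend adjusted p = 5.1e-07) at 48 h. The call at 1 h was lost after centring (0.91), without duplicate 1 of 0 h (0.91) and without duplicate 1 of 1 h (0.96). GRX6 (Cre01.g047800), a CGFS-type gene of probable plastid place, had 41.6 and 42.9 RPKM (0 h), 41.3 and 62.4 (0.5 h), 57.2 and 76.2 (1 h), 86.7 and 101 (2 h) and 118 and 133 (4 h). It had 111 and 109 RPKM (8 h), 76.6 and 70.6 (12 h), 155 and 199.7 (24 h) and 82.4 and 74.1 (48 h) in the second part of the course. From 1 h on both columns exceeded both of 0 h, with the highest pair at 24 h. It rose at 2, 4, 8 and 24 h. The change was 2.03 (SE 0.16, limma-trend adjusted p = 2.1e-07) at 24 h and 0.87 at 48 h, which was not called. The other CGFS-type genes, GRX3 (Cre26.g773400, probable plastid) and GRX5 (Cre07.g325600, probable mitochondrial), were called at no time, with time means of 34.8 to 62.8 RPKM and 31.1 to 49.9 RPKM. In GRX3 duplicate 2 exceeded duplicate 1 at each time, with 32.5 and 64.2 RPKM at 0 h.

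The sigma-class glutathione S-transferases, which join glutathione to other molecules, differed at the end. GSTS1 (Cre16.g688550) had 9.09 and 6.25 RPKM (0 h), 16.8 and 10.5 (0.5 h), 14.4 and 13.95 (1 h), 8.36 and 7.81 (2 h) and 9.74 and 9.40 (4 h). It had 14.1 and 11.8 RPKM (8 h), 15.4 and 14.3 (12 h), 18.1 and 14.9 (24 h) and 32.0 and 61.4 (48 h) at the end. Its pair at 48 h was the highest of the course, although the columns differed from each other. The change of 2.41 (SE 0.25, limma-trend adjusted p = 1.4e-06) at 48 h was the largest rise of the 42 genes against 0 h. Its call at 24 h (1.03) was lost after centring (0.70), with 5 RPKM added (0.77), without duplicate 2 of 0 h (0.82) and without duplicate 1 of 24 h (0.94). Centring in turn made a call of the GSTS1 change at 12 h (0.89 as reported and 1.05 centred). GSTS2 (Cre01.g064400) and GSTS3 (Cre01.g062900) were called at no time against 0 h. GSTS2 had 127 and 98.4 RPKM (0 h), 120.0 and 93.1 (0.5 h), 144 and 108 (1 h), 131 and 109 (2 h) and 117 and 107 (4 h). It had 109 and 118 RPKM (8 h), 189.5 and 208 (12 h), 176 and 166 (24 h) and 88.0 and 97.3 (48 h) afterwards. GSTS3 had 53.3 and 53.6 RPKM (0 h), 51.8 and 52.0 (0.5 h), 54.5 and 73.4 (1 h), 47.5 and 63.5 (2 h) and 66.0 and 62.9 (4 h). This gene ended with 56.0 and 56.7 RPKM (8 h), 71.9 and 73.1 (12 h), 71.3 and 77.6 (24 h) and 31.9 and 29.8 (48 h). In GSTS2 the highest mean came at 12 h and in GSTS3 at 24 h, and in both the pair at 48 h was below those of 0 h.

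The late samples were also compared with 12 h directly; the difference is between the columns of 48 h and 12 h, and its SE comes from the spread over all 18 columns, those of 0 h included. Between 48 h and 12 h, 5 of the 42 genes rose and 15 fell, where 19% of all tested genes rose and 10.3% fell; after centring 4 rose and 18 fell, with 10.3% and 15.6% of all. The genes that fell included 5 of 7 peroxiredoxins and 4 of 10 thioredoxins. PRX6 had 2.05 and 1.60 RPKM at 48 h, against 24.7 and 17.4 RPKM at 12 h, a change of -2.95 (SE 0.15, limma-trend adjusted p = 2.0e-09). PRX5 changed by -2.58 (SE 0.09, limma-trend adjusted p = 6.6e-11), TRXf2 by -2.47 and PRX2 by -2.45. PRX1 changed by -1.02, and by -0.83 without duplicate 2 of 48 h. The genes that rose were NTRC1 (change 1.64, SE 0.10, limma-trend adjusted p = 9.0e-09), GSTS1 (1.52, and 0.94 without duplicate 2 of 48 h), GSHR2 (1.37), TRX10 (1.34, and 0.91 with 5 RPKM added) and TRXy (1.08, but 0.74 after centring, 0.96 with 5 RPKM added and 0.98 without duplicate 1 of 12 h).

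The annotated place of the protein was given without conflict for 26 of the 42 genes, 12 in the plastid, 8 in the cytosol and 6 in the mitochondrion. For some of them it is only a possible, probable or predicted place. Of the plastid genes 5 rose at 4 h and the other 7 were not called, where 5.99% of all tested genes rose and 11.8% fell. At 48 h 1 plastid gene rose and 5 fell, where 18.4% of all tested genes rose and 15.8% fell. The plastid genes that fell at 48 h were APX1, PRX6, TRXf2, TRXm and TRXx, and the one that rose was GSH1. Of the cytosol genes 3 fell at 4 h (GPX5, NTR1 and TRXh2a) and 3 others at 48 h (GRX2, NTR3 and PRX2), and none rose at either time. Of the mitochondrion genes 2 rose at 48 h (CAT1 and NTR2) and 4 were not called. The median change was -0.61 at 48 h and 0.57 at 4 h for plastid genes. It was -0.90 at 48 h and -0.35 at 4 h for cytosol genes and 0.12 at 48 h and -0.22 at 4 h for mitochondrion genes, beside 0.14 at 48 h and -0.04 at 4 h for all tested genes. Places were not tested against each other.

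Other genes of the same pathways were taken from lists of symbols, not all of which are names in the table. The list of sulfiredoxin and ferredoxin-thioredoxin reductase gave 1 gene of 8 symbols. This gene, SRX1 (Cre05.g232800), sulfiredoxin, which restores overoxidised 2-Cys peroxiredoxins, had 30.6 and 22.2 RPKM (0 h), 18.3 and 13.1 (0.5 h), 14.2 and 10.3 (1 h), 8.89 and 8.24 (2 h) and 7.76 and 6.75 (4 h). It had 5.33 and 4.86 RPKM (8 h), 4.34 and 3.52 (12 h), 5.37 and 4.81 (24 h) and 7.12 and 7.99 (48 h) after 4 h. Both columns of every later time were below both of 0 h, and the change was -2.46 (SE 0.14, limma-trend adjusted p = 5.0e-09) at 12 h and -1.66 at 48 h. Superoxide dismutases, which make the hydrogen peroxide that these enzymes remove, gave 4 genes of 6 symbols. Of these, 3 rose and 1 fell at 12 h, where 10.1% and 18% of all tested genes did. At 48 h 2 rose and 1 fell, where 18.4% and 15.8% of all tested genes did. The manganese enzyme gene MSD3 (Cre16.g676150) had 470.3 and 493 RPKM at 12 h, against 4.86 and 3.35 RPKM at 0 h, and the iron enzyme gene FSD1 (Cre10.g436050) had 149 and 87.1 RPKM at 48 h, against 691 and 707 RPKM at 0 h (change -2.60, SE 0.13, limma-trend adjusted p = 1.5e-09).

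Of 10 symbols for plastid enzymes known as thioredoxin targets or partners of such targets, 9 were found. At 8 h 3 of these rose and 1 fell, where 7.36% and 13.9% of all tested genes did. At 48 h 6 fell and 3 were not called, where 15.8% of all tested genes fell and 18.4% rose. Their median at 48 h was -1.03, beside 0.14 for all tested genes. PRK1 (Cre12.g554800), phosphoribulokinase, had 93.2 and 84.2 RPKM at 48 h, against 462 and 493 RPKM at 0 h (change -2.42, SE 0.08, limma-trend adjusted p = 7.7e-11), and the fructose-1,6-bisphosphatase gene FBP1 (Cre12.g510650) changed by -1.06. Both genes found, of 7 symbols, for the pentose phosphate route rose at 12 h and at 48 h. Of all tested genes, 10.1% and 18.4% rose at these times. TAL1 (Cre01.g032650), transaldolase, had 760.3 and 679.5 RPKM at 12 h, against 68.9 and 36.2 RPKM at 0 h (change 3.82, SE 0.20, limma-trend adjusted p = 3.5e-09), and GLD1 (Cre17.g725550), glucose-6-phosphate dehydrogenase, changed by 2.11 (SE 0.19, limma-trend adjusted p = 2.5e-07) at 48 h. Of 5 genes found of 11 symbols for cysteine synthesis, which supplies glutathione, 1 rose at 48 h, OASTL1 (Cre08.g367600, 1.22), and 4 were not called. The 1 gene found of 10 symbols for the ascorbate pool, GMP1 (Cre16.g672800), GDP-mannose pyrophosphorylase, fell at 48 h (change -2.30, SE 0.15, limma-trend adjusted p = 1.9e-08).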

How the data were processed

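RNA of Chlamydomonas cells at 9 times was measured by sequencing, and the authors deposited 1 table of 17301 transcripts with 18 columns of RPKM values, 2 per time; 0 columns of values were left unused. The header names no unit; RPKM was read from the values. The aligner was Bowtie, as listed per the submitters' processing notes. Which version was run, on which build, and how reads were counted and filtered is not given in the sources used here. Names and annotated places of genes come from the table's descriptions. Roles come from these descriptions and from general knowledge of the enzymes. How reads of near-identical copies were divided is not known.

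Since RPKM steps by 1 read, depth could be solved (Python 3.11.15; numpy 2.4.6; pandas 2.3.3) from 3558 weak genes, whose lengths came out whole within 0.05 bases, and gave about 13200000 to 33400000 reads per column. Tests used RPKM, not reads.

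limma-trend (limma 3.58.1 in R 4.3.3) was fitted to log2(RPKM + 1) of the 13077 genes that reached 1 RPKM in 3 or more times, over 18 columns with time as factor and duplicate number as block (8 residual degrees of freedom), with Benjamini-Hochberg adjustment over all genes per comparison. All 42 members passed this filter. Duplicate numbers come from the column names; the difference between duplicates correlated between times at 0.31 to 0.73 across genes (36 pairs of times, median 0.50), so the numbers were taken to pair the columns. The procedure was tested on simulated data.

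Values of every column are printed for the most abundant gene of each family, the 8 largest called rises and the 8 largest called falls, members called in both directions, and up to 4 uncalled members with a mean of at least 50 RPKM. Members and lists were chosen with earlier results of these data known. The symbol SBP1 was left out of the list of thioredoxin targets because it names a sulfate-binding protein in the table. Alternatives were centring of each column on its median, pseudocounts of 0.1, 0.5 and 5 RPKM, no filter, a filter of 5 RPKM, no block, a threshold of 0.01, and leaving out each column. Figures were drawn with matplotlib 3.10.9.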

Additional observations from a re-analysis of the deposited data

Results flagged for a closer look

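The change against 0 h differed between 48 h and 12 h in 20 of the 42 genes, by the direct limma-trend comparison of both times with the same call rule as above; 19% of all tested genes rose and 10.3% fell in it. The differences, 48 h minus 12 h in log2(RPKM + 1), were -1.02 for PRX1, -2.45 for PRX2, -1.20 for PRX3, -2.58 for PRX5 and -2.95 for PRX6. They were -1.56 for TRXf1, -2.47 for TRXf2, -1.91 for TRXm and -1.01 for TRXo, but 1.34 for TRX10 and 1.08 for TRXy. Among the remaining peroxidases they were -1.90 for APX1 and -1.88 for GPX3. Thioredoxin reductases split, with -1.63 for NTR3 and 1.64 for NTRC1. Sigma-class transferases split too, with 1.52 for GSTS1, -1.09 for GSTS2 and -1.21 for GSTS3. MSRA4 had -1.22 and GSHR2 1.37. Of these 20, PRX5 was called in opposite directions at 48 h and at 12 h against 0 h (-1.30 and 1.28). GSTS2 fell short of 2-fold without duplicate 2 of 12 h (-0.94) and without duplicate 1 of 48 h (-0.94), and TRXo likewise (-0.98 and -0.97) and with 5 RPKM added (-0.92).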

How the results depend on the processing

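Across 8 other settings and 18 left-out columns, 456 of 468 recomputed counts of called members stayed within 1.5 times the reported count. Leaving out a column of a time outside a comparison alters only the SE of its change, so those counts could hardly move. After centring, 1 member fell at 0.5 h (0 reported), 4 rose at 1 h (8 reported), 2 fell at 8 h (4 reported) and 8 fell at 24 h (4 reported); of all tested genes 5.02%, 5.04%, 9.97% and 10.9% did so after centring, and 3.48%, 8.38%, 13.9% and 6.39% as reported. Centring also made calls not given with the genes above. These were NTR2 at 0.5 and 1 h (-1.04 and -1.07), PRX5 at 4 h (1.03), CAT2 and TRXf2 at 8 h (1.03 and 1.04) and APX2 at 12 h (1.15). At 24 h they were GRX2 (-1.01), PRX6 (-1.19) and TRXx (-1.10). Between 48 h and 12 h they were GPX5 (-1.28), GSHR1 (-1.05) and TRXL1 (-1.28). With a pseudocount of 5 RPKM, 1 rose at 0.5 h (2 reported), 3 rose at 24 h (6 reported) and 3 rose between 48 h and 12 h (5 reported). With a pseudocount of 0.1 RPKM, 1 fell at 0.5 h. Leaving out each column in turn gave 2 to 5 members higher and 0 to 2 lower at 0.5 h: 4 were higher without duplicate 2 of 0 h and 5 without duplicate 2 of 0.5 h, and 2 were lower without duplicate 2 of 0.5 h and 1 without duplicate 1 of 0.5 h. At 48 h the left-out columns gave 4 to 6 higher and 11 to 13 lower. Without the replicate block each of the 18 counts was as reported (12 lower and 5 higher at 48 h). With both duplicate numbers at every time, the block alters only the SE and not the change, so this setting could move few calls. Of 2756 recomputed values of the 106 called changes, 2696 kept their call, 60 lost it and 0 turned direction. Here too, left-out columns of times outside the comparison could hardly alter a call. The pseudocount limits the change of weak genes such as CAT2 and GPX3, and fewest reads (24 in a column) were behind CAT2.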
